A study of Mus musculus with 6 samples.

Results

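Lpin2 KO clone #1 was compared with Lpin2 KO clone #2, untreated and with LPS, on the 4 KO arrays of a series of 6 mouse Clariom S arrays. The arrays were chosen by the clone number in their titles, 2 for clone #1 and 2 for clone #2, and 19505 named genes were compared, of which 29 were over 2-fold apart the same way in both treatments and 143 were over 2-fold apart in 1 treatment and under 1.5-fold in the other, with signals below background raised to it. The study measured total RNA of RAW-D cells, a subclone of the mouse macrophage line RAW264.7 that forms osteoclasts readily, to ask how the phosphatidate phosphatase lipin2 limits inflammatory transcription. The groups were untreated clone #1, untreated clone #2, clone #1 with LPS, clone #2 with LPS (200 ng/mL for 4 h), and WT cells untreated and with LPS, with 1 array each. The KO cells were made with CRISPR/Cas9 knockout and homology repair plasmids, kept under puromycin and isolated as single clones, so each KO group is 1 clone, and the 2 arrays of a clone are its 2 treatments. The sources used here do not say that WT cells went through the same selection. All groups grew in α-MEM with serum and antibiotics, and each clone was sampled once in each treatment.

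Macrophages sense LPS, a lipid of the bacterial outer membrane, through TLR4. The MyD88 adaptor leads from TLR4 to NF-κB and to cytokine genes, while the adaptor TRIF leads to IRF3 and to interferon-β. Interferon-β then acts back on the cell through its receptor, IFNAR, and the factor ISGF3, which holds STAT2 and IRF9, turns on interferon-stimulated genes, among them antiviral enzymes, RNA sensors and IRF7, which amplifies the response. Macrophages also hold a low basal level of this program without infection. Clones derived from 1 line differ in what they inherited from their founder cell, so a pair of KO clones is commonly used to tell what they share.

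The values are RMA log2 signals, and a signal was called dim where 95% of the array's 5222 negative controls, or fewer, lay below it (a background of 9.34 to 9.45 on the KO arrays). A fold against a dim signal is given as "at least", with that percentile in its place. From 28.7% to 31.4% of genes were above it on an array, 6413 on at least 1 KO array and 4994 on all 4. Across genes, clone #1 correlated with clone #2 at r = 0.995 untreated and r = 0.993 with LPS, and LPS correlated with untreated at r = 0.961 in clone #1 and r = 0.967 in clone #2 (genes are not independent replicates). Of 1324 positive control probes, 8 differed over 2-fold between the clones untreated and 7 with LPS once signals were raised to the background. As measured, 47 differed untreated and 56 with LPS. Of the 19505 named genes, 49 differed untreated and 185 with LPS with signals raised to the background. These counts stand over unlike totals. As a share of their number, more control probes than named genes passed 2-fold untreated, and fewer with LPS. Of 9 measured macrophage markers, 8 were above background on all 4 KO arrays, Csf1r and Lyz2 among them, and Mertk was dim on each. None of 19 lymphocyte markers and none of 18 fibroblast and epithelial markers was above background on a KO array, and 2 of 15 dendritic cell markers (Bst2 and Tcf4) and 2 of 21 neutrophil and mast cell markers were. Lpin2, the targeted gene, had signals of 7.97 in clone #1 and 8.42 in clone #2 untreated, and 7.52 in clone #1 and 7.98 in clone #2 with LPS. It was dim on every array, so the array does not check the genotype of either clone.

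Within 1 treatment there is 1 array per clone, so a difference there has no test and is given as a value. Untreated, 33 genes were over 2-fold higher in clone #1 (0.169% of 19505) and 16 lower (0.082%). With LPS, 146 were higher in clone #1 (0.749%) and 39 lower (0.2%). Of the 29 genes over 2-fold the same way in both treatments, 21 were higher in clone #1 (0.108%) and 8 lower (0.041%), and 0 went opposite ways. With the 99th percentile of the negative controls as background, 0 genes were over 2-fold in both treatments, and 98 were over 2-fold in both with signals as measured. The 2 treatments share no array, so each is a separate measurement of the pair of clones. Of 205 genes over 2-fold in at least 1 treatment, 129 were measured above background in both, and 119 of these had the same sign in both. The 119 include the 29 genes chosen for going the same way, whose sign agrees by that rule. Over the 6413 genes above background on a KO array, the clone difference untreated and the clone difference with LPS correlated at r = 0.456.

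**Figure D1:**
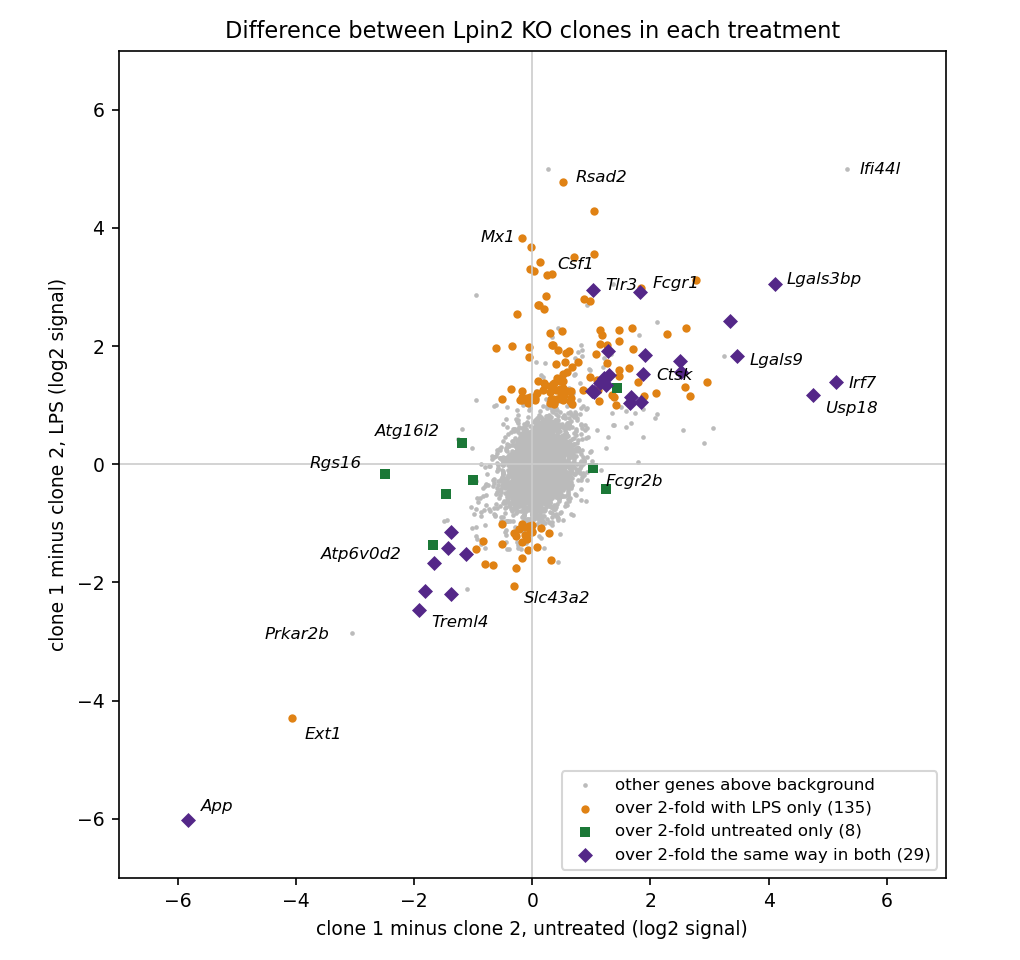
Each point is 1 of 6413 genes above background on at least 1 KO array, with the log2 signal of clone 1 minus clone 2 untreated on the x axis and with LPS on the y axis, dim signals as measured; colours mark the 29 genes over 2-fold the same way in both treatments, 135 over 2-fold with LPS and 8 over 2-fold untreated that were under 1.5-fold in the other treatment once dim signals were raised to the background. Most points lie near 0, App and Ext1 stand at the lower left, Ifi44l, Irf7 and Usp18 at the right, and no gene over 2-fold in both treatments lies in the upper left or lower right.

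To test the clone difference over both treatments, limma was fitted to the 4 KO arrays with treatment as a term, so that the error is the change of the clone difference between treatments (1 residual degree of freedom, 5.76 prior degrees of freedom). It called 33 genes at an adjusted p under 0.05 over all genes, 26 higher in clone #1 (0.133%) and 7 lower (0.0359%). Of these, 10 were also over 2-fold the same way in both treatments, and 7 were dim on all 4 KO arrays. The test favours genes whose difference is the same size in both treatments, and a gene with a large but unequal difference, such as Irf7, does not pass. Without the treatment term, where the LPS response enters the error, 0 genes were called. The p describes these 4 arrays of 2 clones, not KO clones at large. An exact permutation of the clone labels within treatments cannot give a two-sided p under 0.5.

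Interferon-stimulated genes were higher in clone #1 in both treatments. Of 65 measured, 18 were over 2-fold higher and 0 lower untreated (27.7% higher, against 0.169% of all genes), and 41 were higher and 0 lower with LPS (63.1%, against 0.749%). The median difference was 1.29 untreated and 1.32 with LPS on the log2 scale, against -0.01 and -0.03 over all genes. Clone #1 had the higher signal for 59 of 65 untreated and 63 of 65 with LPS, against 9584 and 8960 of all 19505 genes. These medians and counts include dim signals. Of the 65, 7 were dim on all 4 KO arrays, and 18 of the 41 higher with LPS were dim in both clones untreated. For those genes the untreated sign compares signals below background. Of the 21 genes higher in both treatments, 12 belong to this list, and limma called 10 of its genes higher (15.4%, against 0.133%). This list was written with earlier results of these data known. LPS itself raised the list by a median of 3.96 in clone #1 and 4.17 in clone #2. In these bulk samples, fewer responding cells and less RNA per responding cell cannot be told apart.

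**Figure D2:**
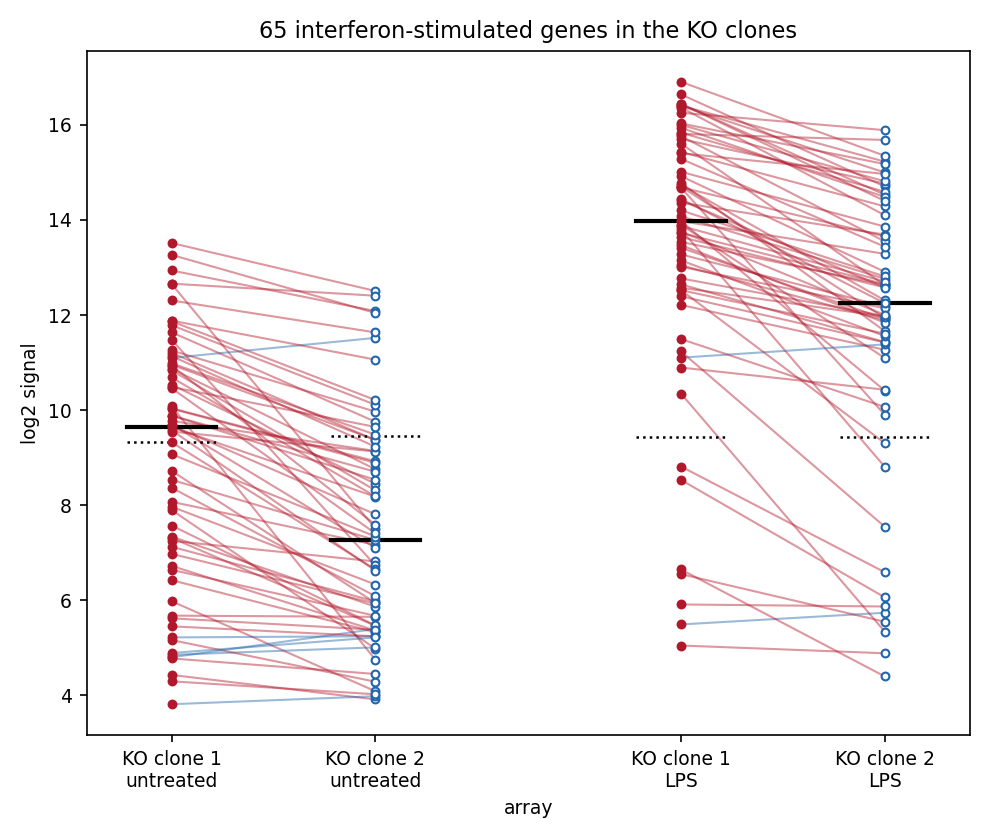
Log2 signals of 65 interferon-stimulated genes on the 4 KO arrays (y axis), clone 1 left of clone 2 in each treatment, with a line joining each gene (red where clone 1 is higher, blue where clone 2 is), a thick bar for the median and a dotted bar for the background. Nearly all lines slope down to clone 2, 59 of 65 untreated and 63 of 65 with LPS. These counts include genes whose signals are dim, under the dotted bar, in both clones.

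Among regulators of the response, Irf7, the transcription factor that amplifies interferon production, had signals of 12.65 in clone #1 and 7.51 in clone #2 untreated, and 16.40 in clone #1 and 15.00 in clone #2 with LPS. Clone #2 was dim untreated, so clone #1 was at least 9.17-fold higher there, and 2.63-fold higher with LPS (mean difference 3.27 ± 0.74 (standard error), limma adjusted p = 0.329). Usp18, a protease that removes ISG15 and restrains the interferon receptor, had 11.48 in clone #1 and 6.73 in clone #2 untreated, and 16.40 in clone #1 and 15.23 in clone #2 with LPS, at least 4.07-fold and 2.26-fold higher. Both genes were thus far apart without LPS and came closer with it. Stat2 and Irf9, which encode parts of ISGF3, were in the same order: Stat2 had 9.77 in clone #1 and 9.14 in clone #2 untreated and 13.73 and 12.65 with LPS, 2.11-fold apart with LPS. Irf9 had 9.68 in clone #1 and 7.81 in clone #2 untreated and 10.89 and 10.43 with LPS, at least 1.17-fold and 1.38-fold apart. The receptor and kinase genes upstream differed less: Ifnar1 had 12.05 in clone #1 and 12.18 in clone #2 untreated and 12.05 and 12.03 with LPS. For Ifnar2, Jak1 and Tyk2 the clone difference lay between -0.15 and 0.32. Ifnb1, the gene of interferon-β, was dim on all 4 arrays, with 8.05 in clone #1 and 6.30 in clone #2 with LPS. Irf1, which interferons and NF-κB both induce, was dim untreated and had 11.45 in clone #1 and 9.75 in clone #2 with LPS, 3.24-fold higher. Of the 24 measured genes of interferons, their receptors and JAK-STAT signaling, 1 was higher untreated and 3 with LPS, and 0 were lower. Over all genes, 0.169% were higher untreated and 0.749% with LPS.

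Signals of Ddx58, Ifih1 and Tlr3, which sense viral RNA, were higher in clone #1, though limma called none of them. Ddx58, which encodes RIG-I, had 11.79 in clone #1 and 10.11 in clone #2 untreated, and 15.43 in clone #1 and 14.29 in clone #2 with LPS, 3.19-fold and 2.21-fold higher (mean difference 1.41 ± 0.20 (standard error), limma adjusted p = 0.0798). Ifih1, which encodes MDA5, was at least 2.67-fold higher untreated and 1.81-fold higher with LPS (limma adjusted p = 0.246). Tlr3, the endosomal receptor of double-stranded RNA, had 10.65 in clone #1 and 9.62 in clone #2 untreated and 13.61 and 10.66 with LPS, 2.04-fold higher untreated and 7.71-fold higher with LPS (limma adjusted p = 0.259). Tlr7, the receptor of single-stranded RNA, had 15.93 in clone #1 and 15.63 in clone #2 untreated and 15.25 and 14.53 with LPS, 1.23-fold and 1.64-fold higher. The DNA-binding PYHIN genes Ifi204 and Ifi211 were 2.44-fold and at least 2.61-fold higher untreated, and 3.76-fold and 2.94-fold higher with LPS. The other Toll-like receptor genes differed less. Tlr4 itself had 12.92 in clone #1 and 13.09 in clone #2 untreated, and 9.97 in clone #1 and 10.13 in clone #2 with LPS. Of 31 measured genes of TLR signaling, Tlr3 was the only 1 over 2-fold in either treatment, against 205 of all 19505 genes.

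Antiviral effectors differed in 2 ways. Some were already above background without LPS in clone #1. Oas2, a 2'-5' oligoadenylate synthetase, had 11.20 in clone #1 and 9.37 in clone #2 untreated, and 13.64 in clone #1 and 12.58 in clone #2 with LPS, at least 3.36-fold and 2.08-fold higher. Bst2, the tetherin that holds budding virus, had 10.69 in clone #1 and 8.18 in clone #2 untreated, and 13.76 in clone #1 with LPS, where clone #2 was lower by a difference of 1.75, at least 2.35-fold and 3.37-fold higher (2.13 ± 0.23 (standard error), limma adjusted p = 0.0354). Trim30a, a regulator of TLR signaling, had 10.93 in clone #1 and 7.59 in clone #2 untreated, and 14.74 in clone #1 and 12.31 in clone #2 with LPS, at least 2.79-fold and 5.38-fold higher (2.89 ± 0.25 (standard error), limma adjusted p = 0.0166). Phf11d, a PHD finger gene, was at least 3.21-fold higher untreated and 3.60-fold higher with LPS (1.88 ± 0.18 (standard error), limma adjusted p = 0.0210). The nuclear body gene Sp100, the ADP-ribosyltransferase Parp12 and Samd9l were each from 2.01-fold to 3.15-fold higher in each treatment. Ifi44l had the largest mean difference of the list: 10.08 in clone #1 and 4.75 in clone #2 untreated, and 13.80 in clone #1 and 8.81 in clone #2 with LPS. Clone #2 was dim in both, so the folds are at least 1.54 and at least 20.6 (5.16 ± 0.19 (standard error), limma adjusted p = 0.000321). Of the 41 genes of the list over 2-fold higher with LPS, 18 were dim in both clones untreated and so could be compared with LPS only. Among them, Rsad2, the antiviral enzyme viperin, had 14.68 in clone #1 and 9.90 in clone #2 with LPS, 27.4-fold higher. Oasl2 had 14.78 in clone #1 and 11.66 in clone #2, 8.67-fold higher (2.95 ± 0.19 (standard error), limma adjusted p = 0.00449). Mx1, a GTPase against influenza virus, had 11.23 in clone #1 and a dim 7.55 in clone #2, at least 3.48-fold higher. A few members did not follow or differed less. Ifi27 had 11.10 in clone #1 and 11.52 in clone #2 untreated and 11.10 and 11.38 with LPS. The LPS-induced Oasl1 had 16.25 in clone #1 and 15.89 in clone #2 with LPS, 1.29-fold higher. Untreated, Oasl1 had a dim 7.90 in clone #1 and a dim 4.98 in clone #2. Cxcl9 and Iigp1 were dim on all 4 arrays.

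The promoters of the genes that differed the same way were searched for interferon-response letters. In RefSeq promoter windows of the mouse genome (GRCm38.p6, from 250 bases before to 50 after a transcript start), both strands were searched for GAAANNGAAA (TTTCNNTTTC on the other strand), a core that ISGF3 and IRF factors bind. It was in 5 of the 18 genes with a window among the 21 higher in clone #1 (27.8%), in 0 of 5 among the 8 lower, and in 618 of all 15691 genes with a window (3.94%). Of all 32851 windows, 3.44% hold it. The 5 are Lgals9, Bst2, Ifi211, Ddx58 and Trim30a, and their windows are printed because they carry the match, which is in capitals. Counted in bases from the transcript start, the first match begins at -130 in Bst2, where 2 matches overlap in 1 run, at -55 in Lgals9, which has 2, at -37 in Ifi211, at 2 in Ddx58, and at -36 in the printed window of Trim30a, 1 of 2 for that gene.
Lgals9 (chr11:78984875-78985174, - strand): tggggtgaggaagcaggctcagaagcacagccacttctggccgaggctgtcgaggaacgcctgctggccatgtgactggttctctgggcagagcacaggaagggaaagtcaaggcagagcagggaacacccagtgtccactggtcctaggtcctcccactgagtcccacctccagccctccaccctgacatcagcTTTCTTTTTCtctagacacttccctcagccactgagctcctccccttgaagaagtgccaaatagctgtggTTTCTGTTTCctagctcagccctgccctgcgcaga
Bst2 (chr8:71537423-71537722, - strand): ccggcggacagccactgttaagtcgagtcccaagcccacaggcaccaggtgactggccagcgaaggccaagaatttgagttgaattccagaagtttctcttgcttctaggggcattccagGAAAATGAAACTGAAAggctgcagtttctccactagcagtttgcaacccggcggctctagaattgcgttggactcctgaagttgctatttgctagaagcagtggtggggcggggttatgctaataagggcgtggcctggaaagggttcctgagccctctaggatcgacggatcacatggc
Ifi211 (chr1:173912997-173913296, - strand): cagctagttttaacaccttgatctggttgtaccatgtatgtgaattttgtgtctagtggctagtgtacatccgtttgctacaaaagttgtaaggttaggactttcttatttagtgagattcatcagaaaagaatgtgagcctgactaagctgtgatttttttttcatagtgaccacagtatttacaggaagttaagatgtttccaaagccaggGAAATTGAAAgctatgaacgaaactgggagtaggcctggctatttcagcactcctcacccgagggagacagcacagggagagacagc
Ddx58 (chr4:40239776-40240075, - strand): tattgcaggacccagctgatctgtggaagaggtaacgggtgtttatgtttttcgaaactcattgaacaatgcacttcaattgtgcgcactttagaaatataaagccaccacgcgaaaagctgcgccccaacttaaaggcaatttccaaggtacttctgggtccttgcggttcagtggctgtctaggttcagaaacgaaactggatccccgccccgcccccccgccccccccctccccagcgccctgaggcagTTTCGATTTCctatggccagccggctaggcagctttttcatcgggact
Trim30a (chr7:104465144-104465443, - strand): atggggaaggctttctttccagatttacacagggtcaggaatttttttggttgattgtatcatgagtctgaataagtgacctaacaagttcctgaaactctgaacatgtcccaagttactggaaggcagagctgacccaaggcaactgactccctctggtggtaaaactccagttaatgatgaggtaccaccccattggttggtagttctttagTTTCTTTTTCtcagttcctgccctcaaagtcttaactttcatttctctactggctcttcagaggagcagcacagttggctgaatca
A match is a description of the letters, and no factor was measured at these sites. Irf7 and Usp18 are among the 21 genes, and Irf7 has a window without this match.

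MHC class I genes had higher signals in clone #1. Of 16 measured genes of MHC class I and the immunoproteasome, all 16 had the higher signal in clone #1 in both treatments. Of all 19505 genes, 9584 untreated and 8960 with LPS did. The median difference of the 16 was 0.60 untreated and 1.03 with LPS. None was over 2-fold untreated, 4 were over 2-fold higher with LPS (0.749% of all genes were), and limma called 1, H2-T23 (0.133% of all genes were called higher). Psmb10, an immunoproteasome subunit, had 10.20 in clone #1 and 8.87 in clone #2 untreated, and 11.85 in clone #1 and 9.98 in clone #2 with LPS, at least 1.68-fold and 3.64-fold higher. H2-T23, which encodes the mouse Qa-1 molecule, had 9.62 in clone #1 and 7.84 in clone #2 untreated, and 12.11 and 10.71 with LPS (1.59 ± 0.19 (standard error), limma adjusted p = 0.0482). The peptide transporter Tap1 had 14.96 in clone #1 and 13.72 in clone #2 with LPS, 2.37-fold higher, and the light chain B2m had 16.78 in clone #1 and 16.39 in clone #2 untreated. The paralogous H2 genes share sequence, so their probes may not tell them apart fully.

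**Figure D3:**
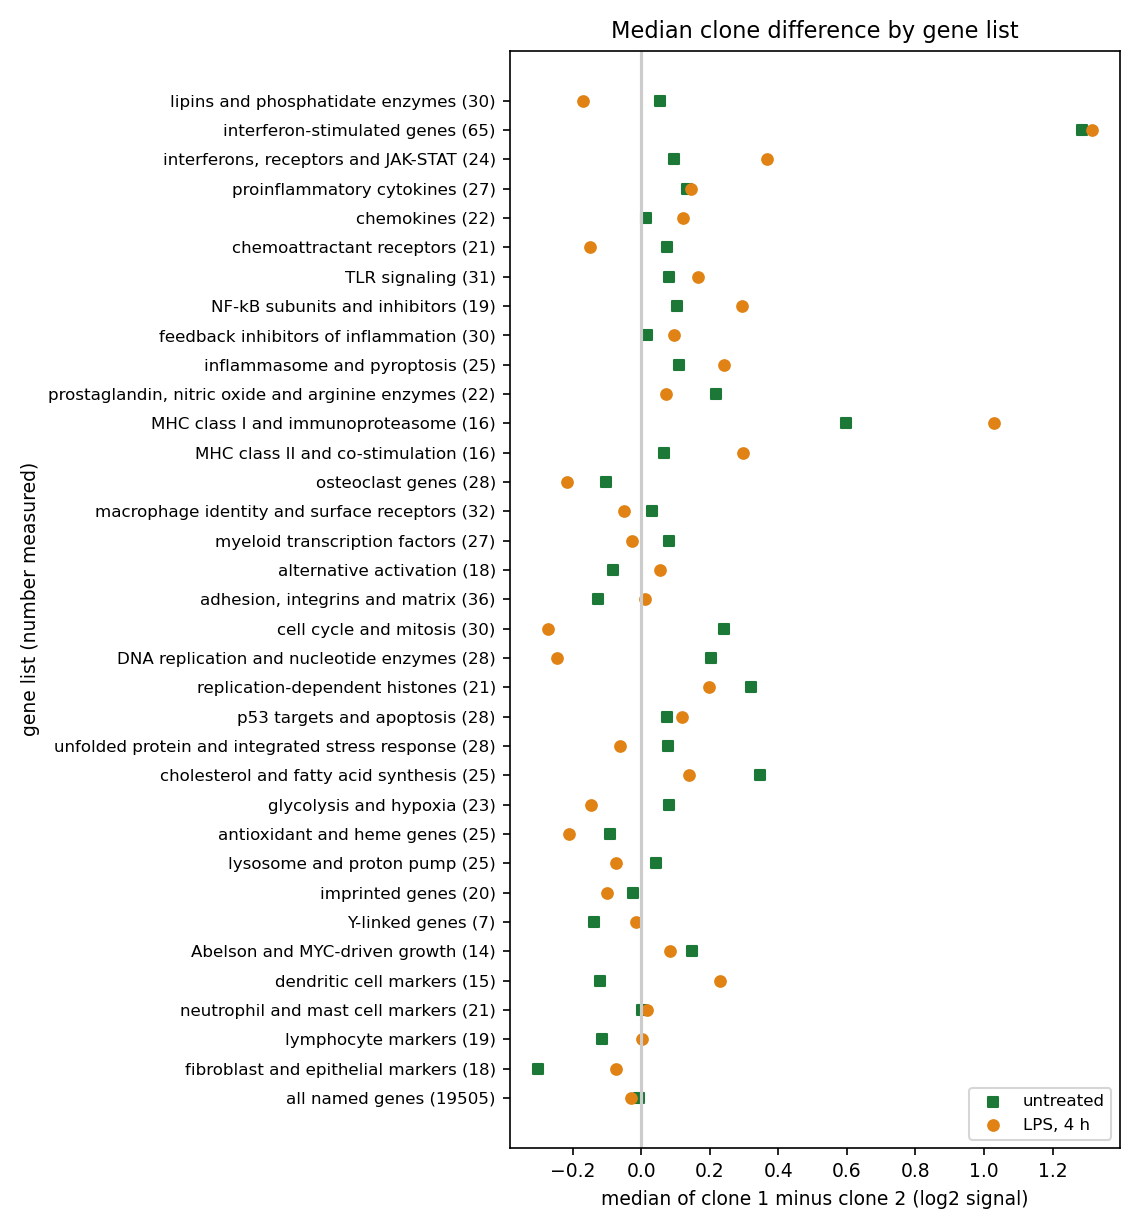
For each of 34 gene lists, and for all 19505 named genes at the bottom, the median log2 difference of clone 1 minus clone 2 over the measured genes (x axis), untreated (squares) and with LPS (circles). Interferon-stimulated genes (1.29 and 1.32) and MHC class I genes (0.60 and 1.03) lie to the right; the medians of all genes are -0.01 and -0.03.

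Outside the interferon list, a galectin, an Fc receptor and a resorption enzyme were higher in clone #1 in both treatments. The list is not complete, and whether these genes respond to interferon here was not tested. Lgals9, which encodes the lectin galectin-9, had 12.59 in clone #1 and 9.12 in clone #2 untreated, and 15.67 in clone #1 and 13.84 in clone #2 with LPS, at least 8.77-fold and 3.54-fold higher (2.65 ± 0.36 (standard error), limma adjusted p = 0.0719). Lgals3bp, a secreted binding partner of galectin-3, had 10.68 in clone #1 and 6.57 in clone #2 untreated, and 12.82 in clone #1 and 9.77 in clone #2 with LPS, at least 2.33-fold and 8.27-fold higher (3.57 ± 0.27 (standard error), limma adjusted p = 0.0101). Fcgr1, the high-affinity IgG receptor of macrophages, had 11.87 in clone #1 and 10.05 in clone #2 untreated, and 14.58 in clone #1 and 11.67 in clone #2 with LPS, 3.54-fold and 7.53-fold higher (2.37 ± 0.27 (standard error), limma adjusted p = 0.0442). Fcgr1 was above background on all 4 arrays, and the clone gap was wider with LPS. Igf1, a growth factor that macrophages secrete, had 15.38 in clone #1 and 14.08 in clone #2 untreated, and 13.75 in clone #1 and 12.23 in clone #2 with LPS, 2.45-fold and 2.87-fold higher, while it fell with LPS in both clones. Gpr65, a proton-sensing receptor, was 2.39-fold higher untreated and 2.52-fold higher with LPS. The cation exchanger Slc24a5 was 2.20-fold and 2.59-fold higher, and the sialyltransferase St3gal6 2.07-fold and 2.35-fold higher.

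Osteoclast genes went in both directions. Ctsk, cathepsin K, the collagen-degrading protease of osteoclasts, had 12.03 in clone #1 and 10.15 in clone #2 untreated, and 12.41 in clone #1 and 10.88 in clone #2 with LPS, 3.69-fold and 2.90-fold higher (1.71 ± 0.19 (standard error), limma adjusted p = 0.0392). Atp6v0d2, a proton pump subunit needed for fusion of osteoclast precursors, had 10.80 in clone #1 and 12.47 in clone #2 untreated, and a dim 9.43 in clone #1 and 11.10 in clone #2 with LPS. It was 3.18-fold lower in clone #1 untreated and at least 3.18-fold lower with LPS (-1.67 ± 0.17 (standard error), limma adjusted p = 0.0350). Acp5, tartrate-resistant acid phosphatase, had 12.26 in clone #1 and 12.78 in clone #2 untreated, and 13.62 in clone #1 and 14.63 in clone #2 with LPS, 1.43-fold lower untreated and 2.01-fold lower with LPS. Of 28 measured osteoclast genes, 1 was higher and 1 lower untreated, 1 higher and 2 lower with LPS, and the median differences were -0.10 and -0.22. Over all genes, 0.169% were higher and 0.082% lower untreated, and 0.749% higher and 0.2% lower with LPS. Nfatc1, the master regulator of osteoclast formation, had 14.40 in clone #1 and 14.79 in clone #2 untreated, and 14.32 in clone #1 and 15.02 in clone #2 with LPS. The RANK receptor gene Tnfrsf11a had 12.67 in clone #1 and 12.58 in clone #2 untreated. No RANKL treatment is named for these arrays.

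**Figure D4:**
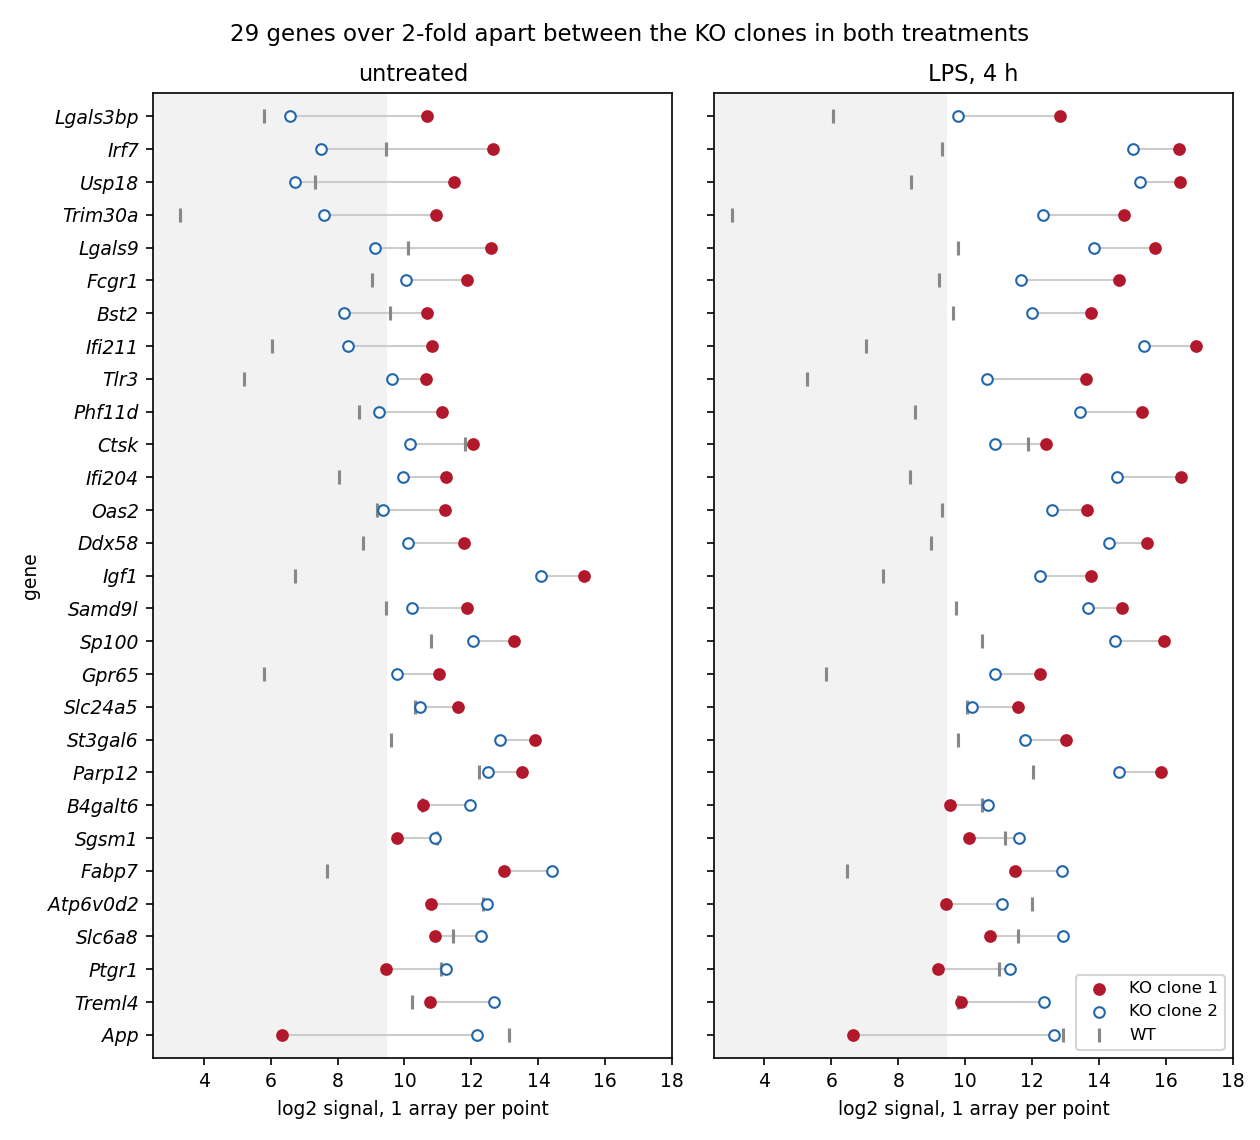
Log2 signal (x axis) of the 29 genes over 2-fold apart the same way in both treatments, untreated on the left and with LPS on the right, with 1 array per point: clone 1 filled, clone 2 open, WT as a grey tick, and the background shaded. The 21 upper genes have clone 1 on the right and the 8 lower genes have clone 2 on the right, and App in clone 1 lies in the shaded background in both treatments.

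The largest mean clone difference of all 19505 genes was that of App. This gene, which encodes the amyloid precursor protein, had 6.35 in clone #1 and 12.17 in clone #2 untreated, and 6.64 in clone #1 and 12.65 in clone #2 with LPS. It was dim in clone #1 in both treatments, so clone #1 was at least 7.15-fold lower untreated and at least 9.30-fold lower with LPS (-5.92 ± 0.18 (standard error), limma adjusted p = 0.00019). The WT arrays had 13.13 untreated and 12.92 with LPS, near clone #2. Ext1, a glycosyltransferase that elongates heparan sulfate, and Prkar2b, a regulatory subunit of protein kinase A, were also called lower by limma, with most of their signals dim, and were picked out after their values were seen. Ext1 had 5.39 in clone #1 and 9.45 in clone #2 untreated, both dim, and 6.14 in clone #1 and 10.44 in clone #2 with LPS, at least 2.00-fold lower (-4.18 ± 0.18 (standard error), limma adjusted p = 0.000704), against 10.40 and 10.50 in WT cells. Prkar2b had 6.71 in clone #1 and 9.76 in clone #2 untreated, at least 1.34-fold lower, and was dim in both with LPS (-2.95 ± 0.18 (standard error), limma adjusted p = 0.00405). With signals raised to the background its mean difference was -0.21 and the call was lost (limma adjusted p = 0.72). Unlike App and Ext1, Prkar2b was dim in WT cells, with 7.84 untreated and 7.92 with LPS. The promoter window of App is printed as the gene with the largest gap, and it has no match of the interferon-response letters.
App (chr16:85173658-85173957, - strand): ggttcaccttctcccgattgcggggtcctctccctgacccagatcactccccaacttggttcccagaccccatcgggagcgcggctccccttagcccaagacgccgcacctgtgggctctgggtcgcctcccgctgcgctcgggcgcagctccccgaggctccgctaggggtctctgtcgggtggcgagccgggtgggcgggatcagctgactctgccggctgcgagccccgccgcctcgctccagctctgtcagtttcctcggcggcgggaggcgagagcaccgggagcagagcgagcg
Of the 5 genes on each side of App in RefSeq order, on chromosome 16, 6 were dim on all 4 KO arrays and could not be compared, and the rest had differences from -0.23 to 0.40. Gabpa, next to App, had 12.98 in clone #1 and 13.11 in clone #2 untreated and 12.80 and 12.81 with LPS, and Atp5j, the next one out, had 13.78 in clone #1 and 13.38 in clone #2 untreated and 13.51 and 13.35 with LPS. Among the neighbours of Ext1 on chromosome 15, 8 were dim on all 4 KO arrays, and Rad21 and Med30 were above background, with differences from -0.11 to 0.27. Near Prkar2b on chromosome 12, where 4 neighbours were dim, Nampt stood apart, with 12.62 in clone #1 and 11.84 in clone #2 untreated and 14.30 and 13.22 with LPS, in the direction opposite to Prkar2b. Over whole chromosomes other than Y, which had 2 genes above background, the median difference ran from 0.05 to 0.12 untreated and from -0.09 to 0.01 with LPS, and no chromosome stood apart.

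**Figure D5:**
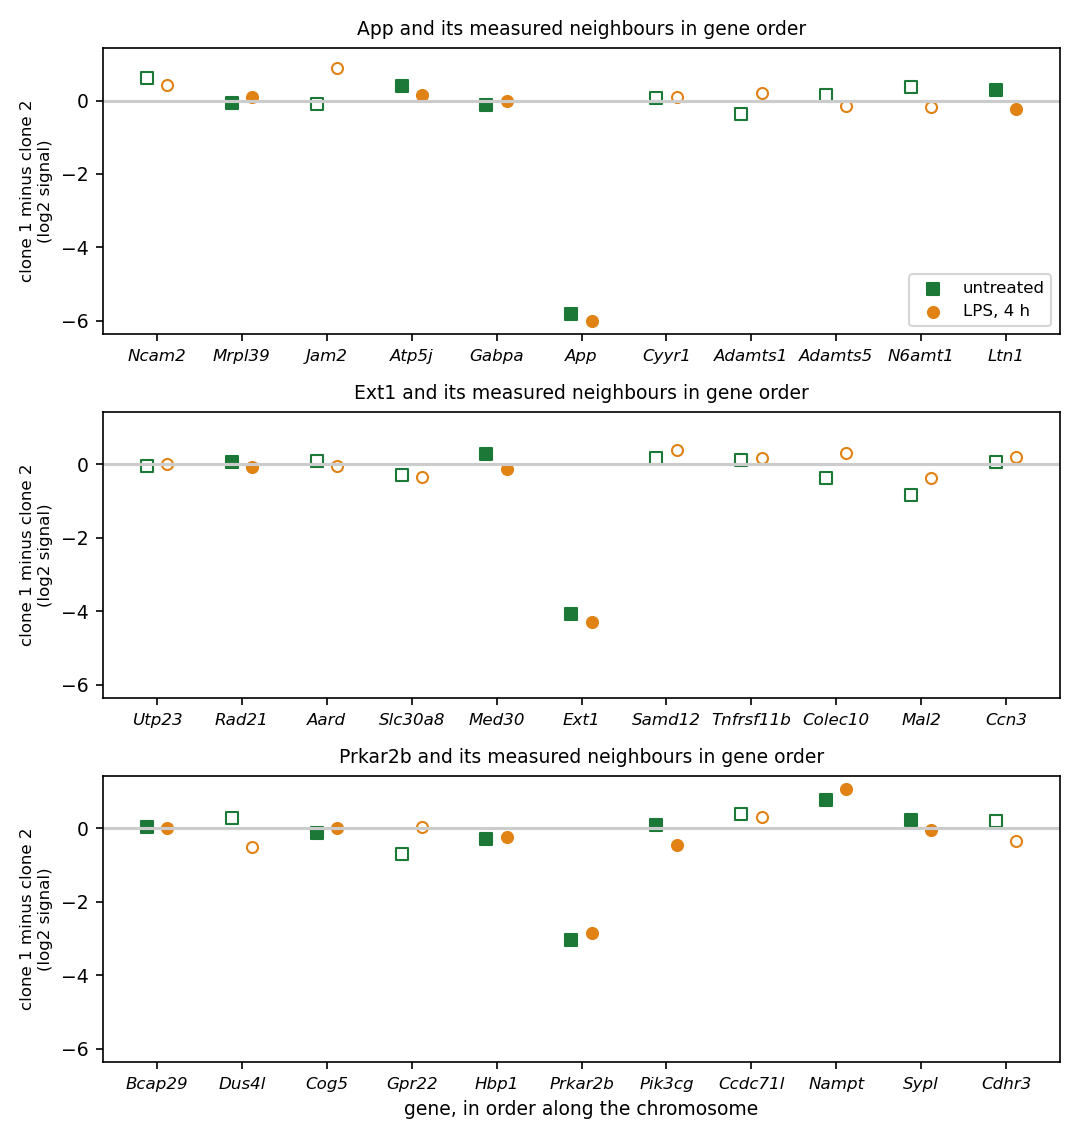
Log2 difference of clone 1 minus clone 2 (y axis) for App, Ext1 and Prkar2b and the 5 genes on each side in RefSeq order (x axis, not to scale), untreated (squares) and with LPS (circles), open where the gene was dim on all 4 KO arrays. Differences are as measured, dim signals included; with dim signals raised to the background App lies at -2.84 untreated and -3.22 with LPS, Ext1 at -0.12 untreated, and Prkar2b at -0.42 untreated with no measurable difference with LPS. The neighbours above background lie between -0.45 and 1.08.

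The other genes lower in clone #1 in both treatments have varied roles. Treml4, a myeloid receptor that binds dead cells, had 10.77 in clone #1 and 12.69 in clone #2 untreated, and 9.89 in clone #1 and 12.36 in clone #2 with LPS, 3.78-fold and 5.55-fold lower (-2.19 ± 0.20 (standard error), limma adjusted p = 0.0210). Ptgr1, a reductase that inactivates leukotriene B4 and prostaglandins, had 9.44 in clone #1 and 11.25 in clone #2 untreated, and a dim 9.18 in clone #1 and 11.34 in clone #2 with LPS, 3.51-fold and at least 3.74-fold lower (-1.98 ± 0.19 (standard error), limma adjusted p = 0.0210). The creatine transporter Slc6a8 was 2.61-fold and 4.56-fold lower, and the fatty acid binding protein Fabp7 was 2.70-fold and 2.68-fold lower. Their limma adjusted p was 0.0631 for Slc6a8 and 0.0538 for Fabp7, so neither passed. The galactosyltransferase B4galt6 and the Rab regulator Sgsm1 were from 2.18-fold to 2.87-fold lower.

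Few genes were over 2-fold apart untreated and under 1.5-fold with LPS, 3 higher in clone #1 (0.0154%) and 5 lower (0.0256%). Where a clone is dim, the smaller fold is only a lower bound, and it does not show that the clones are alike there. Both clones were above background with LPS for 1 of the 3 and 3 of the 5. Fcgr2b, the inhibitory IgG receptor, had 11.32 in clone #1 and 10.28 in clone #2 untreated, and 12.43 in clone #1 and 12.49 in clone #2 with LPS, 2.05-fold and 1.04-fold apart. Prune2 was at least 2.26-fold higher untreated, and with LPS it had 9.72 in clone #1 and a dim 8.42 in clone #2, a difference of 1.30 as measured. Rgs16, which turns off G protein signals, had a dim 8.05 in clone #1 and 10.54 in clone #2 untreated, and 14.39 in clone #1 and 14.56 in clone #2 with LPS, so the clones met once LPS had induced it. Myo1d, an unconventional myosin, was 2.74-fold lower untreated and Atg16l2, a homolog of an autophagy factor, 2.28-fold lower. Whether such a difference changes between treatments cannot be tested with 1 array each.

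More genes were over 2-fold apart with LPS and under 1.5-fold untreated, 107 higher in clone #1 (0.549%) and 28 lower (0.144%), but 65 of the 107 and 8 of the 28 were dim in both clones untreated. Of the 42 higher genes above background in at least 1 clone untreated, 25 were above it in both, Il18, Samhd1 and Themis2 among them. In the other 17 clone #2 was dim untreated, so the untreated fold is a lower bound, and 12 of these, Parp9, Slfn5, Slfn8, Xaf1, Phf11b and Cxcl10 among them, were over 2-fold higher as measured untreated as well. Cxcl10, which attracts activated T cells, had 10.03 in clone #1 and 8.89 in clone #2 untreated, and 16.44 in clone #1 and 14.40 in clone #2 with LPS, at least 1.49-fold and 4.12-fold higher. Themis2, a signaling adaptor of myeloid and B cells, had 12.05 in clone #1 and 11.75 in clone #2 untreated, and 12.84 in clone #1 and 10.62 in clone #2 with LPS, so it stood higher with LPS than without it in clone #1 and lower in clone #2. Epsti1 was 4.27-fold higher with LPS and Gm7609 4.94-fold higher. Their differences as measured untreated were 1.47 and 1.69 with clone #2 dim, and limma called both higher over both treatments (adjusted p = 0.0482 for Epsti1 and 0.0354 for Gm7609). Among the 20 that were lower and measured in both, the amino acid transporter Slc43a2 had 14.63 in clone #1 and 14.95 in clone #2 untreated, and 10.20 in clone #1 and 12.27 in clone #2 with LPS, 4.18-fold lower. Egr2, a transcription factor of macrophage activation, had 12.23 in clone #1 and 12.40 in clone #2 untreated, and 10.71 in clone #1 and 12.29 in clone #2 with LPS, 2.99-fold lower. Ampd3, Slc37a2, Tspan14 and Ezr were from at least 2.42-fold to 2.74-fold lower with LPS.

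Among inflammatory cytokines, a small group differed between the clones with LPS. Tnf had 17.56 in clone #1 and 17.44 in clone #2 with LPS, and Il1b had 16.77 and 16.73. Il6 had 13.21 in clone #1 and 10.67 in clone #2 with LPS, 5.84-fold higher. Il18, which is processed by the inflammasome, had 12.71 in clone #1 and 12.15 in clone #2 untreated, and 14.51 in clone #1 and 12.78 in clone #2 with LPS, 3.31-fold higher. Il15, which sustains NK and memory T cells, had 13.76 in clone #1 and 12.05 in clone #2 with LPS, 3.28-fold higher. Csf1 and Tnfsf15 were dim in clone #2 with LPS, and clone #1 was at least 2.96-fold and at least 3.72-fold higher. Lta, lymphotoxin-α, had 9.82 in clone #1 and 11.50 in clone #2 with LPS, 3.22-fold lower, and was 1 of 27 measured cytokines that was lower, against 5 that were higher. Of these 6, only Il18 was above background untreated. Beside these and the list counts that follow, 0.749% of all genes were over 2-fold higher with LPS and 0.2% lower. Of 22 chemokines, Cxcl10 and Cxcl11 were higher with LPS and 0 were lower: Ccl5 had 17.15 in clone #1 and 16.92 in clone #2, and Cxcl2 17.65 and 17.71. None of 19 NF-κB subunits and inhibitors and none of 30 feedback inhibitors was over 2-fold in either treatment. Of 16 measured genes of MHC class II and co-stimulation, 4 were higher with LPS, and all 4 were dim in both clones untreated: Cd40 had 13.95 in clone #1 and 11.98 in clone #2, 3.91-fold higher, Cd83 was 3.70-fold higher, Cd80 was 2.19-fold higher and Tnfsf4 was at least 6.98-fold higher. Ptges, the inducible prostaglandin E synthase, had 15.34 in clone #1 and 16.77 in clone #2 with LPS, 2.70-fold lower.

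Lists of general cell state had few or no genes over 2-fold. Of 30 measured cell cycle genes none was over 2-fold in either treatment, against 205 of all 19505 genes. At that share, none in 30 does not set the list apart. Clone #1 had the higher signal for 29 untreated and 7 with LPS, against 9584 and 8960 of all 19505 genes. The median difference was 0.24 untreated and -0.27 with LPS. Over the 6413 genes above background on a KO array the median was 0.08 untreated and -0.06 with LPS, in the same directions. Rrm2, the ribonucleotide reductase subunit, had 14.73 in clone #1 and 14.44 in clone #2 untreated, and 10.18 in clone #1 and 11.35 in clone #2 with LPS, 2.24-fold lower. Of 30 measured lipins and phosphatidate enzymes none was over 2-fold either, which at the same share does not set them apart. Of 25 measured genes of cholesterol and fatty acid synthesis, 1 was over 2-fold higher untreated and 1 with LPS (0.169% and 0.749% of all genes were), and 0 were lower. Clone #1 had the higher signal for 23 untreated and 17 with LPS, with median differences of 0.35 and 0.14. Scd1, a fatty acid desaturase, had 11.28 in clone #1 and 10.07 in clone #2 untreated, 2.31-fold higher, and 10.17 in clone #1 and a dim 8.37 in clone #2 with LPS, at least 1.67-fold higher. Of 32 measured macrophage genes, 2 were over 2-fold higher and 0 lower untreated (0.169% and 0.082% of all genes). With LPS, 2 were higher and 1 lower (0.749% and 0.2%). Limma called 2 of the 32 higher (0.133% of all genes), Fcgr1 and Siglec1, which was dim except in clone #1 with LPS. The pore-forming Mpeg1 was just under the 2-fold line untreated, with 13.22 in clone #1 and 12.24 in clone #2, and 3.01-fold higher with LPS. The lectin Clec4n had 11.76 in clone #1 and 12.91 in clone #2 with LPS, 2.22-fold lower. At the 2-fold line, a log2 difference of 1, the smaller of the differences in the 2 treatments was 1.03 for Samd9l, 1.03 for Tlr3 and 1.01 for Parp12, the last genes within it. It was 0.98 for Mpeg1, 0.97 for Oas3 and 0.96 for Pml, the first outside.

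Set beside WT cells, most of the genes higher in clone #1 were lower in WT cells than in either clone. Untreated, 6 of the 21 were dim in both WT cells and clone #2 and have no order, and of the other 15, WT cells lay below both clones for 11 and between them for 4. With LPS, WT cells lay below both clones for 20 of the 21 and between them for 1, Ctsk. For the 8 genes lower in clone #1, WT cells lay above both clones for 2 untreated and 2 with LPS, between for 3 and 4, and below both for 3 and 2. The WT array with LPS responded less than the KO arrays: Cxcl2 stood higher with LPS than untreated by 11.78 in clone #1, 11.71 in clone #2 and 2.48 in WT cells. Among the 21 genes, Irf7 had 9.44 untreated and 9.31 with LPS in WT cells, Bst2 9.58 and 9.62, and Usp18 a dim 7.32 and 8.36. In clone #1 and clone #2 they rose by 3.74 and 7.49, 3.07 and 3.82, and 4.92 and 8.49. For these genes the order with LPS sets induced clones beside WT signals that changed little or stayed dim. According to the labels, untreated WT cells were summarised at the gene level and the other 5 samples at the exon level, and the part of that difference in the WT values was not tested.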

How the data were processed

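Total RNA of 6 samples was labelled with the GeneChip WT PLUS kit and hybridised to Clariom S arrays, 1 per sample. The deposited values are log2 signals, which the authors made by RMA in Expression Console. Here the KO arrays were used as deposited. Probe sets were named through the platform annotation, and the probe set with the highest mean over the 6 arrays stood for a gene. The difference is clone #1 minus clone #2. Signals were raised to the array's background before a 2-fold call. Clones were tested over both treatments with limma 3.58.1 in R 4.3.3 (treatment and clone as terms, Benjamini-Hochberg over 19505 genes), and the code was run on simulated data. Those data had noise drawn from the fitted model and a clone effect equal in both treatments. They cannot check the test where the clone effect changes with LPS. With 1 array per clone and treatment, p-values measure only the spread between these arrays, which may be technical, and array number limits the precision. That spread is limma's moderated one. It joins a gene's own spread (1 residual degree of freedom) to a spread pooled over all genes (5.76 prior degrees of freedom). Where a gene differs by nearly the same size in both treatments, its standard error is largely the pooled part. Named genes were Lpin2, the 12 per direction with the largest smaller difference among genes past 2-fold the same way, the 6 per direction and treatment with the largest difference among genes past 2-fold in 1 treatment, and up to 4 per list. Those 4 had the largest mean difference among genes called by limma or past 2-fold in either treatment. Every other gene, Ext1 and Prkar2b included, was picked once its values were known. The members and lists were chosen with earlier results of these data known. Alternatives varied the background, fold, scaling, probe set rule and fit.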

Additional observations from a re-analysis of the deposited data

Results flagged for a closer look

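Of 129 genes over 2-fold apart in at least 1 treatment and measured in both, 10 had differences of opposite sign without and with LPS, 3 of them among the named genes, and the difference between treatments was not tested. Fcgr2b was higher in clone #1 by 1.03 untreated and had a difference of -0.0556 with LPS, which is close to 0. Atg16l2 had a difference of -1.19 untreated and 0.37 with LPS. Rrm2 had a difference of 0.29 untreated and -1.17 with LPS, all on the log2 scale as clone #1 minus clone #2.

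Among 2634 probe sets without a gene symbol, which no comparison above uses, 13 were over 2-fold apart the same way in both treatments (0.494%), 4 higher in clone #1 and 9 lower. Of the 19505 named genes 29 were, a smaller share, and with most of them higher in clone #1 (21 higher and 8 lower). Untreated, 17 of the 2634 were over 2-fold apart, and with LPS 29, against 49 and 185 of the 19505 named genes.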

How the results depend on the processing

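The count of genes over 2-fold untreated was 49, and it was 232 with signals not raised to the background, 4 with the 99th percentile as background, 206 at 1.5-fold and 16 at 3-fold. With LPS the count of 185 became 468, 49, 539 and 66 in the same order. For genes apart the same way in both treatments, 29 became 98, 0, 90 and 7, and for genes apart in 1 treatment, 143 became 389, 50, 561 and 45. Quantile scaling gave 52 genes untreated, 28 higher in clone #1 and 24 lower (53.8% higher, against 67.3%). The 33 genes called by limma became 93 without genes dim on all arrays, 149 with genes whose mean was above background, 108 with an intensity trend, 72 with each array centred on its median, 453 with signals raised to the background, 70 at an adjusted p of 0.1 and 0 without the treatment term, where the LPS response enters the error. With signals raised to the background, Fam13c, Gca, Ifi27l2a, Pir, Pla2g5 and Rec114 each turned to -0.0588, since all 4 of their signals lie at the background, and the calls of Prkar2b (-0.21), Mamld1 (-0.0588) and Siglec1 (0.39) were lost. With quantile scaling Epsti1 was no longer called (1.70, limma adjusted p = 0.0559). Leaving out an array leaves 1 treatment without a comparison and no test. No paired analysis was possible because each group is 1 array, beyond the treatment term of the fit, which already compares the clones within a treatment. Dim signals limit what can be read for genes near the background.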
